A study of Mus musculus with 9 samples.

Results

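Cartilage matrix and growth plate transcripts were followed as 10 genes chosen by name (Acan, Hapln1, Comp, Matn1, Matn3, Cnmd, Snorc, Ucma, Sox9 and Ihh), all 10 of which were found among the 56980 genes of the deposited table. The bulk RNA libraries came from C57BL/6 mice of wild type, with 5 aged mice (20 months old) and 4 young mice (3 months old), each labelled a biological replicate and otherwise untreated. The labels call the tissue bone marrow, while the extraction protocol names homogenised trabecular bone, so that cells of bone, growth plate and attached tissue could be present beside marrow. The series asks which transcripts linked to sensory innervation differ with age.

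Growth cartilage is built by chondrocytes, which surround themselves with type II collagen fibrils and with aggregates of the proteoglycan aggrecan held on hyaluronan by link protein. Adaptor proteins such as the matrilins and COMP tie these networks together. The transcription factor SOX9 drives much of this gene set, and Indian hedgehog, a ligand made as chondrocytes begin to enlarge, sets the pace of growth plate maturation in the mouse.

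The libraries held 19804883 to 23548594 estimated counts in the aged group and 20120991 to 23336827 in the young group. Values are given as these counts or as CPM, in which each library's counts are scaled to a common total after TMM correction for library composition, with SD over n = 5 aged and n = 4 young mice. Aged 3, aged 4 and young 4 stood apart from the other libraries, with 6.01% to 7.02% of their counts on ribosomal protein genes against 3.07% to 3.32% in the other 6, and are shown apart below as the library set. The design text calls all mice female, but aged 5 and the 4 young libraries had 888 to 1721 counts of the Y-linked gene Ddx3y and at most 9 of Xist. Aged 1 to 4 had 0 counts of Ddx3y and 7909 to 21724 of Xist, so age and sex chromosome transcripts cannot be told apart outside aged 5. Markers of marrow were abundant, the summed level of 8 neutrophil lineage genes being 16526 to 73176 CPM in aged and 22667 to 52302 CPM in young libraries. Skeletal muscle transcripts were present as well, 9 markers summing to 3385 to 10571 CPM in aged and 3764 to 10554 CPM in young libraries.

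RefSeq promoter sequences (build GRCm38.p6, 250 bases before to 50 bases after the gene's start, written 5′ to 3′ on the gene's strand) were found for 7 of the 10 genes. The 4 printed here belong to genes whose counts lay mostly in the same pair of young libraries, as described below. Capitals mark the core letters bound by SOX proteins, searched as ACAAT and ACAAAG on both strands. The 2 motifs share their first letters, and no stretch matches both from the same position.
Acan (chr7:79052976-79053275, + strand): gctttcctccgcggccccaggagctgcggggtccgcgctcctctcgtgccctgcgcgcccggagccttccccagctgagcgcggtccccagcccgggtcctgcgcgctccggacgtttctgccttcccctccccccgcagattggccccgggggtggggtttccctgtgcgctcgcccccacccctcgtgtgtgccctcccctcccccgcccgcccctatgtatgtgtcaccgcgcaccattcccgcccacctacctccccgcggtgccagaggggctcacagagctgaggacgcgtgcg
Hapln1 (chr13:89540386-89540685, + strand): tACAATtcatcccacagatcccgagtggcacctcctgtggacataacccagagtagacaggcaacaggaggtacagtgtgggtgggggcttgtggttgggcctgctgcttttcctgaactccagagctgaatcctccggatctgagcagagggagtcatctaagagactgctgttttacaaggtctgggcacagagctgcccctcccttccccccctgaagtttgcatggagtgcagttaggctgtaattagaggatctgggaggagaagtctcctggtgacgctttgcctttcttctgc
Cnmd (chr14:79662134-79662433, − strand): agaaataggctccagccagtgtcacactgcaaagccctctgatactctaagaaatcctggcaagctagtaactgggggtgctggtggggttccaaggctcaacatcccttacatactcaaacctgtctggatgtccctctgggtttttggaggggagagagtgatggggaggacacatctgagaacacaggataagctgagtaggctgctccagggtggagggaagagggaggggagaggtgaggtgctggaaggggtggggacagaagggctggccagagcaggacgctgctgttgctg
Matn3 (chr12:8947679-8947978, + strand): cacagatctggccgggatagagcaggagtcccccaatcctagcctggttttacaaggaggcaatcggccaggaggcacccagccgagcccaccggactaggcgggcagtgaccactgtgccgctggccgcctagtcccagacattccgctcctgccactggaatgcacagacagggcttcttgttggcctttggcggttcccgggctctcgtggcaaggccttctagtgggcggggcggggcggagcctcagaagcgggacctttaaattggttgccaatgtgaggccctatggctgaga
Hapln1 held 1 ACAAT match and the Acan, Cnmd and Matn3 windows held none. Among the 7 promoters found, 2 (Hapln1 and Ihh) held either motif, against 42.9% of the 32851 mouse promoters in the RefSeq table. ACAAT alone was in 31.0% of all promoters and ACAAAG in 18.7%. The last 30 bases of the Acan window were not found in a GENCODE M21 transcript of the gene, while those of the other 6 windows were. These matches describe letters in the window and no binding was measured. The Acan promoter was rich in G and C (74.0%), while that of Hapln1 had 54.3%.

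Acan, which encodes aggrecan, the main proteoglycan of cartilage, was high in 2 of the 4 young libraries and low in the other 2 and in all 5 aged ones. It had 14, 46, 0, 0 and 6 counts in aged 1 to 5, against 672, 173, 20 and 14 counts in young 1 to 4. Young 1 and young 2 were far above the rest, while young 3 and young 4 lay below aged 2, so the groups overlapped. The level was 0.574 ± 0.857 CPM in aged and 8.80 ± 11.6 CPM in young libraries. Its 0 counts in aged 3 and aged 4 allow up to 3 counts each, or 0.184 and 0.156 CPM, a limit that covers counting error alone. The log2 fold change (aged over young) was −3.90 (SE 1.34), with an edgeR quasi-likelihood adjusted p of 0.401 over 16576 genes. Of the 10 cartilage genes 4 (Acan, Comp, Sox9 and Ihh) passed the low-count filter of that test. It called 0 of these 4, and 0% of all tested genes as lower in aged libraries, while limma-voom also called 0 of the 4 (0% of all genes). DESeq2 called 0 of Acan, Comp and Sox9 and gave no adjusted p for Ihh, where it called 1.02% of all genes lower and 1.16% higher. Before adjustment over genes, the edgeR test put 1 of the 4, Acan, and 769 of all genes (4.64%) lower in aged libraries at a p under 0.05. Without young 1 and young 2 the Acan log2 fold change was −0.65 (SE 1.48), and without young 1 alone it was −2.47. In bulk tissue, the number of chondrocytes in a sample and the amount of this RNA in each cannot be told apart, and neither was tested.

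Link protein, the product of Hapln1, which fastens aggrecan to hyaluronan, showed the same libraries high. Hapln1 had 6, 8, 0, 6 and 7 counts in aged 1 to 5, against 284, 112, 3 and 14 counts in young 1 to 4. Young 3 had fewer counts than 4 of the 5 aged libraries, and young 1 was 85.7 times young 3 in CPM. The gene averaged 0.238 ± 0.139 CPM in aged and 4.24 ± 4.88 CPM in young libraries. It did not pass the low-count filter of the main test, which asks for about 10 counts in 4 libraries. Without that filter its log2 fold change was −4.12 (SE 1.01, edgeR adjusted p = 0.302 over 30357 genes).

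**Figure D1:**
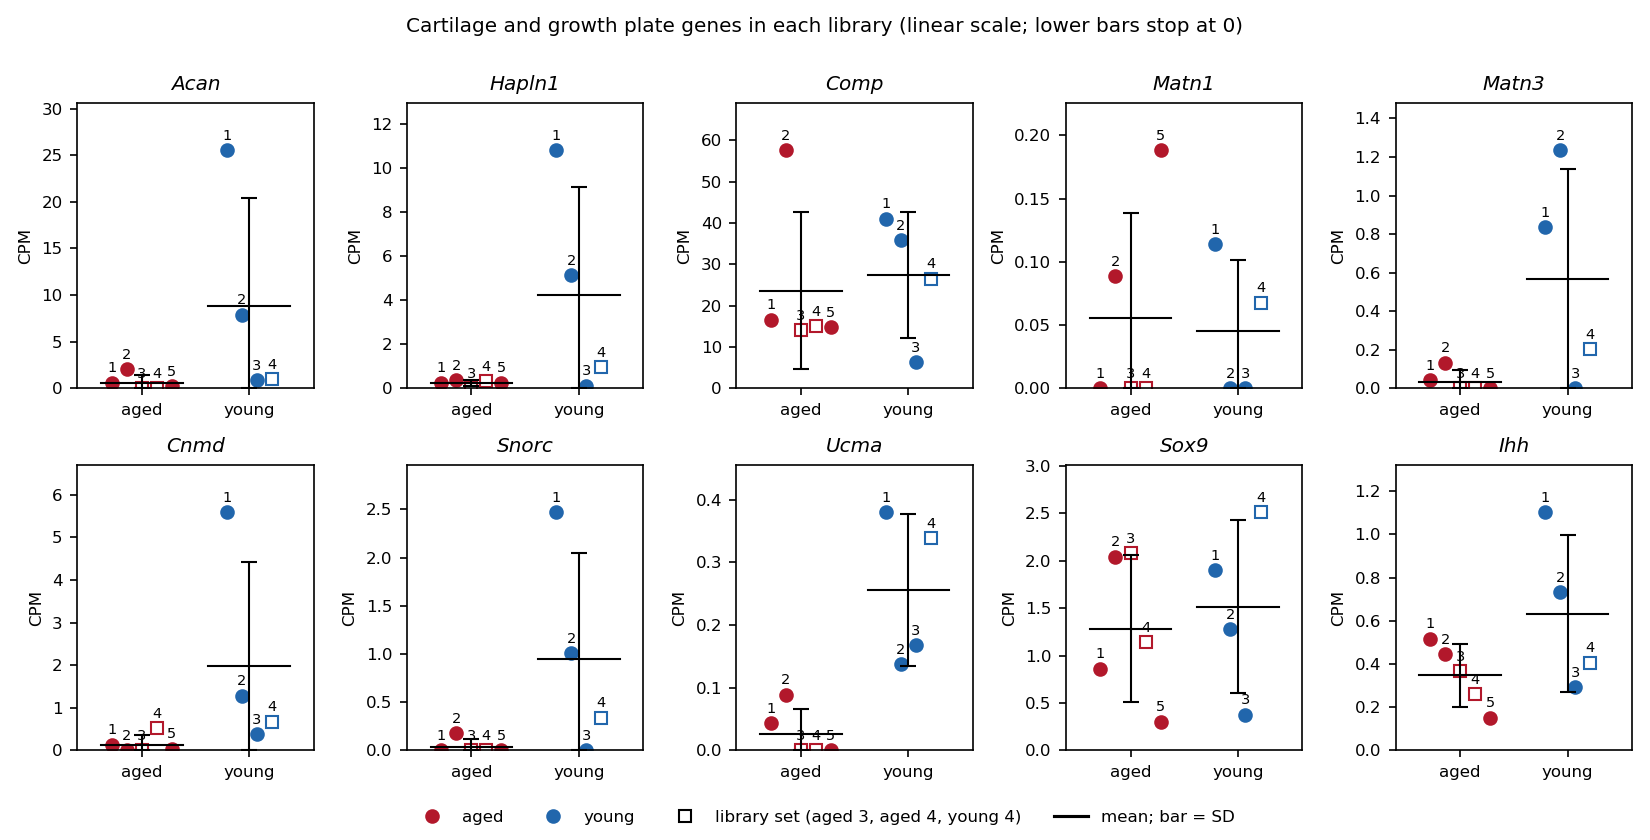
CPM of each of the 10 cartilage genes in each library on linear axes, aged left of young, with replicate numbers above the points, group means as horizontal lines and SD as bars. Young 1 and young 2 hold the high values of Acan, Hapln1, Matn3, Cnmd and Snorc, whereas aged 2 is highest for Comp and young 4 for Sox9.

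The matrix adaptors did not behave alike. Comp, which encodes cartilage oligomeric matrix protein and is also made in tendon and ligament, was the most abundant of the 10 genes. Its counts were 386, 1297, 229, 291 and 395 in aged 1 to 5, against 1082, 784, 151 and 392 in young 1 to 4. Aged 2 was the highest of all 9 libraries and young 3 the lowest, with full overlap of the groups. Comp averaged 23.6 ± 19.0 CPM in aged and 27.5 ± 15.3 CPM in young libraries, a log2 fold change of −0.22 (SE 0.58, edgeR adjusted p = 1.00). Its sign turned to 0.11 in the 6 libraries outside the library set, to 0.05 without young 1 and to 0.50 without young 1 and young 2.

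Matn3, a matrilin gene of growing cartilage, had 1, 3, 0, 0 and 0 counts in aged 1 to 5, against 22, 27, 0 and 3 counts in young 1 to 4. Young 1 and young 2 thus gave 49 of its 56 counts, and young 3 gave none. Matn1, another matrilin gene of cartilage, was near 0 throughout, with 0, 2, 0, 0 and 5 counts in aged 1 to 5 and 3, 0, 0 and 1 in young 1 to 4. At 11 counts in all 9 libraries, no age difference in Matn1 was detectable at this depth. Neither matrilin passed the filter of the main test.

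Genes for cartilage proteins of the membrane and matrix surface were high in young 1 and young 2, as Acan was. Among aged libraries Cnmd differed from Acan, with 0 counts in aged 2 and 10 in aged 4. Acan had 46 and 0 counts there. Cnmd encodes chondromodulin, a membrane glycoprotein known for keeping cartilage free of vessels. It had 3, 0, 0, 10 and 1 counts in aged 1 to 5, against 147, 28, 9 and 10 counts in young 1 to 4. Aged 4 had as many counts as young 4 (0.519 against 0.678 CPM), and young 1 stood above every other library. Snorc, a small transmembrane proteoglycan gene of chondrocytes, had 0, 4, 0, 0 and 0 counts in aged 1 to 5, against 65, 22, 0 and 5 in young 1 to 4. Aged 2 was the single aged library with any Snorc count, and young 3 had none.

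Ucma, named for the upper zone of the growth plate and encoding a secreted protein rich in carboxylated glutamate, was the single gene of the 10 whose groups did not overlap. It had 1, 2, 0, 0 and 0 counts in aged 1 to 5, against 10, 3, 4 and 5 counts in young 1 to 4. Every aged library lay below every young one in 2.41% of the 22433 genes with at least 10 counts in total, and 1 of the 10 genes here did so. Apart from young 1, no library had more than 5 Ucma counts, where an observed 0 allows up to 3. After scaling, young 4 (0.339 CPM) came close to young 1 (0.380 CPM). Ucma averaged 0.0264 ± 0.0396 CPM in aged and 0.256 ± 0.121 CPM in young libraries, with a log2 fold change of −2.96 (SE 1.08, edgeR adjusted p = 0.610) without the low-count filter.

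Sox9, the gene of the transcription factor that directs chondrocyte identity, did not show the order of libraries seen for Acan. Its counts were 20, 46, 34, 22 and 8 in aged 1 to 5, against 50, 28, 9 and 37 in young 1 to 4. In CPM young 4 was highest and aged 5 lowest, aged 2 and aged 3 lay above young 1, and the groups overlapped fully. Sox9 averaged 1.29 ± 0.771 CPM in aged and 1.52 ± 0.910 CPM in young libraries, with a log2 fold change of −0.24 (SE 0.65, edgeR adjusted p = 1.00). That sign turned to 0.02 without aged 5 and to 0.11 without young 4.

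Ihh, which encodes the Indian hedgehog ligand, had 12, 10, 6, 5 and 4 counts in aged 1 to 5, against 29, 16, 7 and 6 counts in young 1 to 4. Young 1 and young 2 were again highest, and young 3 lay below 3 of the 5 aged libraries in CPM. Ihh averaged 0.348 ± 0.146 CPM in aged and 0.633 ± 0.363 CPM in young libraries, a log2 fold change of −0.87 (SE 0.55, edgeR adjusted p = 0.814). Without young 1 and young 2 that difference was −0.0032. Of 4 hedgehog target genes tested, 2 were below 0 and 2 above 0 (median log2 fold change −0.09, against 0.03 over all tested genes). Gli1, a transcription factor gene switched on by hedgehog signals, had the smallest p of the 4 and averaged 0.622 ± 0.451 CPM in aged and 1.37 ± 0.661 CPM in young libraries (edgeR adjusted p = 0.852).

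**Figure D2:**
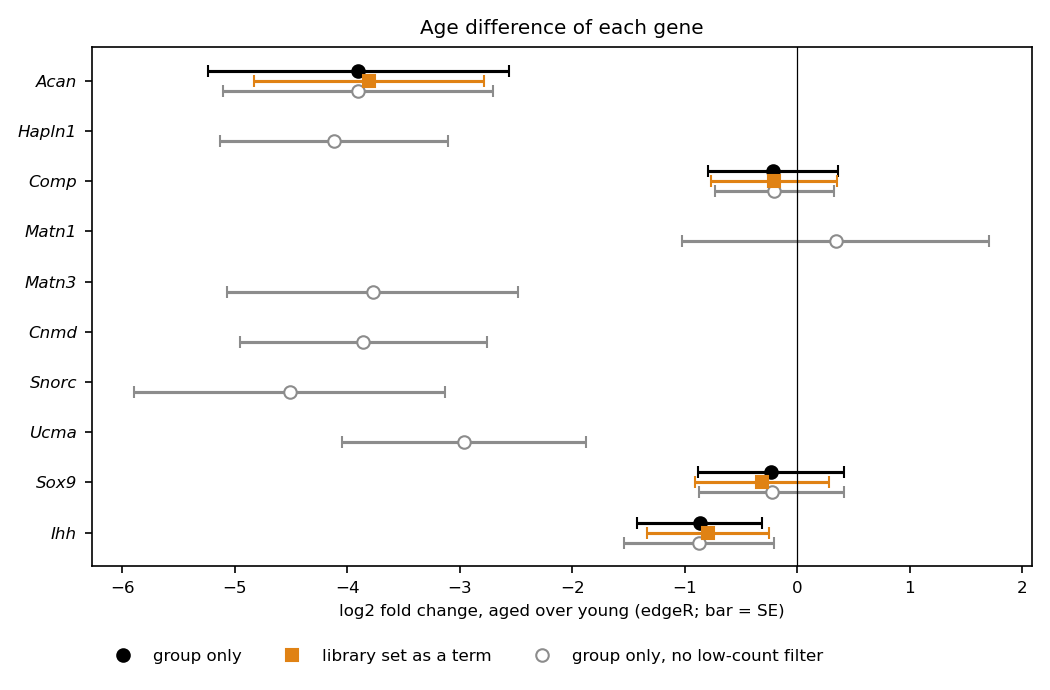
Log2 fold change (aged over young) of each of the 10 genes from edgeR with SE bars, for the group-only fit, for the fit with the library set as a term, and for the group-only fit without a low-count filter, which gives values for all 10. Comp, Matn1, Sox9 and Ihh lie within 1 of 0, and the other 6 genes between −2.96 and −4.51.

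Across the 10 genes, 6 had a fitted log2 fold change between −2.96 and −4.51 and an unadjusted edgeR p under 0.05 when no low-count filter was used. These were Acan, Hapln1, Matn3, Cnmd, Snorc and Ucma, and their adjusted p ran from 0.302 to 0.610. Among all 30357 genes with a count, 3.44% had an unadjusted p under 0.05 and were lower in aged libraries. In the authors' deposited table, 2 of the 10 genes were marked significant, with log2 fold changes of −4.14 for Hapln1 (adjusted p = 0.0046) and −3.89 for Cnmd (adjusted p = 0.0326). That table marked 0.307% of the genes it tested as significant and lower in aged libraries. Acan had an adjusted p of 0.276 and Ucma one of 1.00 in the authors' deposited table.

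Young 1 and young 2 together held 22.7% of all counts of the 9 libraries but 89.4% of the Acan, 90.0% of the Hapln1, 87.5% of the Matn3, 84.1% of the Cnmd and 90.6% of the Snorc counts. For Comp the share was 37.3%, for Sox9 30.7% and for Ihh 47.4%. Both libraries ranked above the other 7 in 6 of the 10 genes, and in 4.88% of all genes with at least 10 counts in total. Among the markers of other skeletal cells described below, they did so for 6 of 12 osteoblast, 1 of 8 osteocyte and 2 of 8 tendon and ligament genes. This ordering was noticed in the values and is given without a test. Acan averaged 0.574 CPM in aged libraries, against 0.894 CPM in young 3 and young 4 together. Hapln1 averaged 0.238 CPM in aged libraries against 0.538 CPM in that young pair, Cnmd 0.137 against 0.528 CPM and Snorc 0.0355 against 0.170 CPM. Ucma averaged 0.0264 against 0.253 CPM, Matn3 0.0353 against 0.102, Sox9 1.29 against 1.44 and Ihh 0.348 against 0.350 CPM. Comp went the other way, with 23.6 CPM in aged libraries against 16.5 CPM in that young pair, as did Matn1 (0.0554 against 0.0339 CPM).

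Counts of 2 genes in the same library do not depend on scaling. Per 100 Comp counts there were 3.63, 3.55, 0, 0 and 1.52 Acan counts in aged 1 to 5, against 62.1, 22.1, 13.2 and 3.57 in young 1 to 4. Young 4 lay between aged 1 and aged 2 in this ratio. Per 100 counts of Col2a1, the type II collagen gene, Acan had 1.48, 2.56, 0, 0 and 0.702 counts in aged 1 to 5, against 19.3, 8.37, 2.78 and 2.02 in young 1 to 4, so that young 4 again overlapped with aged 2. Per 1000 counts of Col1a1, the type I collagen gene of bone, there were 2.69, 2.08, 0, 0 and 0.257 Acan counts in aged 1 to 5, against 9.81, 2.92, 0.938 and 1.06 in young 1 to 4. By this ratio young 3 and young 4 both lay below aged 1 and aged 2.

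Levels between genes were compared in the deposited TPM, which correct for gene length. In aged libraries Comp averaged 12.9 ± 11.3 TPM, Sox9 0.310 ± 0.193, Ihh 0.194 ± 0.151, Snorc 0.188 ± 0.420, Cnmd 0.170 ± 0.240 and Acan 0.150 ± 0.167 TPM. Hapln1, Ucma, Matn1 and Matn3 were at 0.0760, 0.0660, 0.0380 and 0.0160 TPM. In young libraries Comp averaged 14.4 ± 9.92 TPM, Snorc 5.09 ± 6.65, Cnmd 2.52 ± 3.33, Acan 2.25 ± 3.05 and Hapln1 0.890 ± 1.11 TPM. Ucma, Ihh, Sox9, Matn3 and Matn1 followed at 0.562, 0.350, 0.347, 0.225 and 0.0250 TPM. Below Comp, neighbours in either order differed by less than the larger SD of the pair. Snorc, listed with a length of 478 bases against 7355 for Acan, stood above Acan per length in young libraries although it had fewer counts. Comp made up 88.5% to 93.6% of the summed TPM of the 10 genes in aged libraries and 42.5% to 75.9% in young ones. Without Comp the sum was 0.450 to 2.70 TPM in aged libraries, against 33.9, 11.2, 1.57 and 2.36 TPM in young 1 to 4. For Comp, TPM was lower relative to CPM in the library set than in the other libraries. It was 7.45 TPM and 26.6 CPM in young 4, against 13.3 TPM and 16.6 CPM in aged 1. The TPM sums of aged 3, aged 4 and young 4 therefore cannot be set directly against those of the other libraries.

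**Figure D3:**
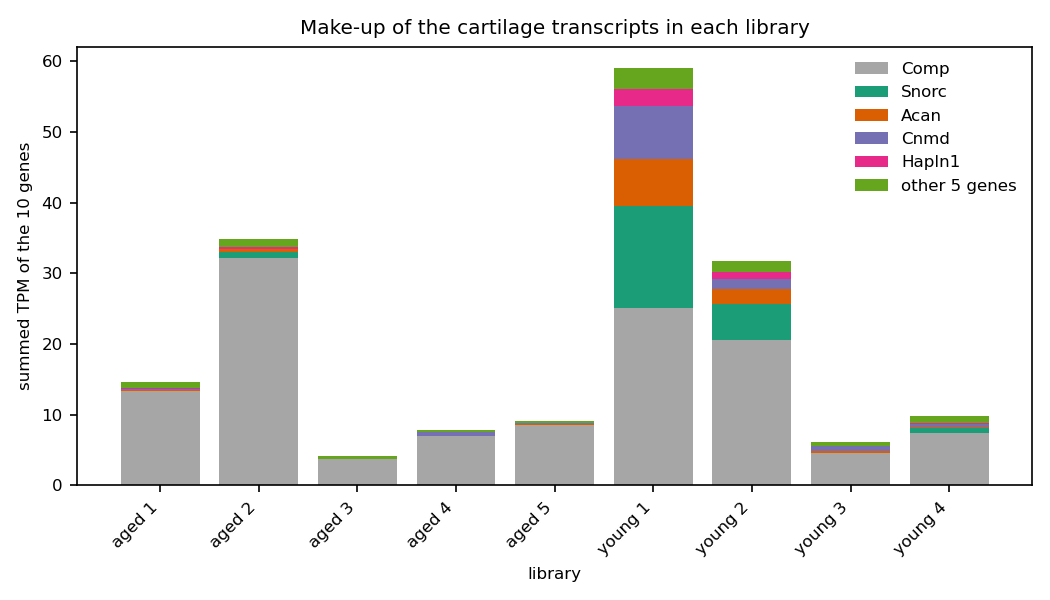
Summed TPM of the 10 genes in each library as stacked bars, aged left of young, with Comp, Snorc, Acan, Cnmd and Hapln1 in their own colours and the remaining genes together. Comp fills most of every bar except that of young 1, where it is 42.5% of 59.0 TPM.

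The library set was read separately. Within it (aged 3 and aged 4 against the single young 4), Acan had 0 and 0 counts against 14, Hapln1 0 and 6 against 14, Cnmd 0 and 10 against 10, and Comp 229 and 291 against 392. Sox9 had 34 and 22 counts in aged 3 and aged 4 against 37 in young 4, and Ihh had 6 and 5 against 6. Scaling changes these comparisons, as 3 counts were 0.203 CPM in young 4, 0.184 in aged 3 and 0.156 in aged 4. In CPM, Cnmd was 0 and 0.519 against 0.678 and Comp 14.0 and 15.1 against 26.6. Sox9 was 2.08 and 1.14 CPM against 2.51, and Ihh 0.367 and 0.259 CPM against 0.407. Matn3, Snorc, Ucma and Matn1 were at 0 in aged 3 and aged 4, and at 3, 5, 5 and 1 counts in young 4. With 1 young library these are values without a test. In the other 6 libraries the log2 fold change of Acan was −3.58 (edgeR adjusted p = 0.146), where 0 of 16576 genes were called lower and 1 higher (0.00603%). With the set as a term in the fit of all 9 libraries it was −3.81 (SE 1.02, edgeR adjusted p = 0.0849), in a fit that called 1.31% of genes lower. Without young 1 that fit gave −2.83 for Acan (edgeR adjusted p = 0.262) and called 0 genes. The age effect of Acan in the set minus that in the other 6 libraries was fitted at −3.78 on the log2 scale (edgeR adjusted p = 0.968, where 0.0121% of genes were called). It rests on young 4 as the lone young library of the set, assumed to vary like the others, and does not show that the sets are alike. Among libraries with Y-linked transcripts outside the set, aged 5 had 6 Acan, 7 Hapln1, 1 Cnmd and 0 Snorc counts, against 20 to 672, 3 to 284, 9 to 147 and 0 to 65 in young 1 to 3. In these 4 libraries the log2 fold change was −5.64 for Acan (SE 2.11, edgeR adjusted p = 0.205), −1.97 for Sox9 (SE 0.95), −2.21 for Ihh (SE 0.98) and −0.90 for Comp (SE 0.83). That test, added after the data were seen, takes the lone aged library to vary like the young ones, and it called 0 of the 4 genes, against 2.3% of all genes lower and 1.48% higher.

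Other cartilage genes, 55 in a list compiled for this tissue, were measured beside them. Of the 42 that passed the low-count filter, 26 were below 0 and 16 above 0, with a median log2 fold change of −0.26 against 0.03 over all tested genes, of which 46.5% were below 0. The edgeR test called 0 of the 42 (6 lower and 1 higher at an unadjusted p under 0.05, where 4.64% and 4.15% of all genes were), DESeq2 called 1 lower (Susd5) and 1 higher (Papss2), and the library set term called Papss2 alone (0.615% of all genes were called higher with that term). Without young 1 the fit with the set term called 0 genes, Papss2 included. The 5 tested collagen genes of cartilage were all below 0 and so were 8 of 9 other matrix genes, while the 6 genes of sulfation and chondroitin synthesis were split, 2 below 0 and 4 above. Growth plate signalling genes had 8 of 12 below 0, cartilage transcription factors 2 of 6 and matrix breakdown genes 1 of 4.

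Young 1 and young 2 were the highest pair for all 8 collagen genes of cartilage, which are among 14 of the 55 listed genes with that pair highest (4.88% of all genes with at least 10 counts in total). Col2a1, which encodes the type II collagen that gives cartilage its fibrils, was far more abundant than Acan and less uneven. It had 948, 1794, 765, 177 and 855 counts in aged 1 to 5, against 3481, 2066, 719 and 693 in young 1 to 4 (log2 fold change −0.86, edgeR adjusted p = 0.830). Its sign turned to 0.11 without young 1 and young 2. Col10a1, the collagen gene of hypertrophic chondrocytes, had 0, 21, 8, 1 and 2 counts in aged 1 to 5, against 234, 182, 1 and 3 counts in young 1 to 4. Young 3 and young 4 thus lay below aged 2 and aged 3 for the hypertrophic marker. Col11a2, a chain of the fibrils that type II collagen forms, averaged 37.4 ± 25.6 CPM in aged and 109 ± 47.4 CPM in young libraries (edgeR adjusted p = 0.385).

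The 2 genes called by DESeq2 went opposite ways. Papss2, which makes the sulfate donor used on proteoglycans, averaged 23.7 ± 3.60 CPM in aged and 14.0 ± 1.35 CPM in young libraries, with every aged library above every young one (so in 1.67% of the genes tested). Its log2 fold change was 0.75 (edgeR adjusted p = 0.266), and the adjusted p was 0.0051 by DESeq2 and 0.0455 by edgeR with the library set term. Susd5 averaged 1.21 ± 0.342 CPM in aged and 3.89 ± 2.39 CPM in young libraries (edgeR adjusted p = 0.299, DESeq2 adjusted p = 0.0274). Sox6, a partner of SOX9 in chondrocytes that is also active in red cell precursors, averaged 57.4 ± 31.6 CPM in aged and 138 ± 29.4 CPM in young libraries (edgeR adjusted p = 0.385).

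**Figure D4:**
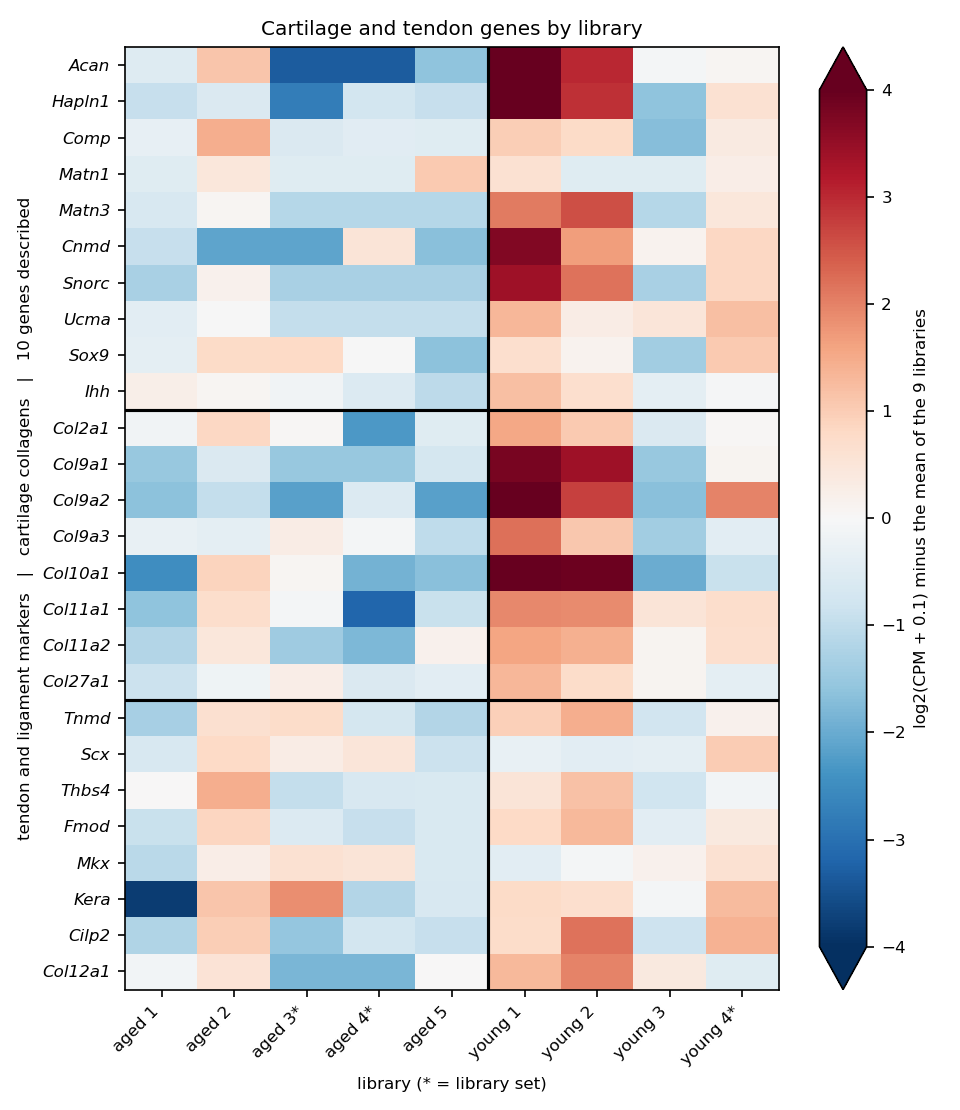
Log2(CPM + 0.1) of each gene minus its mean over the 9 libraries, for the 10 genes (top), 8 collagen genes of cartilage (middle) and 8 tendon and ligament markers (bottom), with aged libraries left of young ones and the library set starred. The red columns of young 1 and young 2 stand out for Acan, Hapln1, Cnmd, Snorc, Col9a1, Col9a2 and Col10a1, whereas aged 2 is also red for Comp, Thbs4 and Fmod.

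Markers of other skeletal cells were measured beside these genes, and their part in the result was not tested. Over all tested genes 46.5% had a log2 fold change below 0. All 12 osteoblast markers were below 0 (median log2 fold change −1.02), their summed level being 774 to 3127 CPM in aged and 2830 to 7461 CPM in young libraries, highest in young 1 and young 2. Sparc, a matrix glycoprotein gene of bone, averaged 282 ± 147 CPM in aged and 890 ± 334 CPM in young libraries (edgeR adjusted p = 0.299). Osteocyte markers were below 0 for 7 of 8 (79.8 to 143 CPM in aged and 162 to 223 CPM in young libraries). Tendon and ligament markers were below 0 for 7 of 8 (51.4 to 199 CPM in aged and 79.9 to 266 CPM in young libraries), highest in young 2 and aged 2. No marker in these lists was at 0 in all libraries of either group. Erythroid markers were below 0 for 7 of 7 and B lineage markers for 8 of 8, whereas neutrophil lineage markers were split 2 below and 6 above, and muscle markers 5 below and 4 above. The edgeR test called 0 genes in each of these lists, while at an unadjusted p under 0.05 it had 6 osteoblast, 3 osteocyte, 2 tendon, 7 erythroid and 1 B lineage genes lower (4.64% of all genes). DESeq2 called 2 osteoblast, 1 osteocyte and 2 erythroid genes lower (1.02% of all genes).

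Genes whose profile over the 9 libraries came closest to the mean of Acan, Comp, Sox9 and Ihh were ranked by the root mean square distance of their centred log2 CPM. The genes in this mean were not alike, Acan and Sox9 lying 2.51 apart by the same distance. The closest to the mean was Tnfrsf11b at 0.36, which encodes osteoprotegerin, the decoy receptor for RANK ligand. Fbn2 (fibrillin-2), Hoxc8, Fmod (fibromodulin), Sema3b, Susd5, Plod2 (a lysyl hydroxylase of collagen) and Col2a1 followed at 0.45 to 0.58. Tnfrsf11b had 1.85, 3.46, 1.16, 0.882 and 1.13 CPM in aged 1 to 5, against 5.47, 4.16, 1.97 and 3.19 CPM in young 1 to 4. Tested genes ranked against Acan alone, a reference outside the planned ranking, lay no closer than 1.34. Hapln1 (1.26) and Snorc (1.27) lay closer to Acan, but failed the low-count filter and were not in that ranking. Comp taken alone, a reference chosen after its values were seen, lay closest to Cilp (0.38) and came near Thbs4 (0.44), a thrombospondin gene of tendon. Thbs4 had 34.6, 93.1, 17.4, 21.7 and 22.3 CPM in aged 1 to 5, against 48.9, 77.0, 19.6 and 31.7 CPM in young 1 to 4, so aged 2 was highest for Thbs4 as for Comp.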

How the data were processed

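One deposited table covers the 9 libraries and lists unscaled estimated counts for each gene. A read aligner (Bowtie 0.12.2) and a mouse assembly (mm8) appear in the submitters' processing notes without a stated use, while the quantifier and annotation are not given in the sources used here. These expected counts, as deposited, were rounded to whole numbers. The TPM columns are the authors' own, per the file headers, and were used for levels between genes. The log2 fold changes, the fold values (not used) and the p-values are the authors' own, as deposited, in a table whose title names DESeq2, and the settings are not given.

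The main test was the quasi-likelihood test of edgeR 4.0.16 in R 4.3.3 on all 9 libraries, modelling age group alone, with TMM factors, a filterByExpr filter (minimum count 10, total 15) and Benjamini-Hochberg adjustment over 16576 genes at a threshold of 0.05, two-sided. DESeq2 1.42.0 and limma 3.58.1 were alternatives. Log2 CPM used a prior count of 2. The code was tested on simulated data. Every pair of libraries within an age group differed by more than sampling noise (smallest chi-square per gene 16.7, young 1 and young 3).

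The 10 genes, the marker lists and the library set were chosen with earlier results of these data known. Named genes are the 10, up to 4 genes per list with the smallest p, Col2a1 and Col10a1, the 8 genes of most similar profile, and Xist and Ddx3y. Others (Cilp and Thbs4 beside Comp, Col1a1 in a ratio, and those among the other observations) were named after their values were seen. Promoters are from RefSeq (GRCm38.p6), and no coordinates come from the deposited table. Figures were drawn with matplotlib 3.10.9.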

Additional observations from a re-analysis of the deposited data

Results flagged for a closer look

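A single library lay far from the rest of its group for 4 values, among 24 groups of 4 or 5 libraries looked at. All 4 were in aged libraries, and no young library was flagged. The cut-offs used flag about 1 in 20 groups only where values are normally distributed. Values resting on few counts are not, so the number of flags was not read as an excess. Comp in aged 2 was 57.6 CPM, with the next aged library at 16.6 CPM, and the gap was 0.94 of the range of the aged group. For Snorc, aged 2 was at 0.178 CPM and the other aged libraries at 0 (gap 1.0 of the range). Cnmd in aged 4 was 0.519 CPM, with the next aged library at 0.129 CPM (0.751 of the range). Hapln1 in aged 3 was at 0, with the next aged library at 0.258 CPM (0.728 of the range). The Snorc, Cnmd and Hapln1 values rest on 0 to 10 counts per library.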

How the results depend on the processing

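No alternative run here called any of the 10 genes it tested. That was 4 genes with the main filter, 8 with at least 10 counts in 2 libraries and 10 with no filter, and DESeq2 gave Ihh no adjusted p. Hapln1 and Cnmd, marked significant in the authors' deposited table, failed the main filter and so were not tested by DESeq2 here. Over 27 settings Acan kept its sign (log2 fold change −7.37 to −0.65, adjusted p 0.0849 to 1.00), and so did Ihh (−2.21 to −0.0032). The value of −7.37 comes from the library set, where Acan was at 0 in both aged libraries, and depends on the prior count. Comp turned to 0.11 in the 6 libraries outside the set, to 0.046 without young 1 and to 0.50 without young 1 and young 2, and Col2a1 turned to 0.11 in that last setting. Sox9 turned to 0.02 without aged 5, to 0.11 without young 4 and to 0.14 with the replicate block. In aged 5 against young 1 to 3, the libraries with Y-linked transcripts outside the set, Sox9 moved to −1.97, Comp to −0.90 and Ihh to −2.21. Leaving out single libraries gave −5.29 to −2.47 for Acan, −1.11 to −0.46 for Ihh, −0.86 to 0.046 for Comp and −0.56 to 0.11 for Sox9.

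Against 0 genes called in the main test, DESeq2 called 360, the library set term 319, the 6 libraries outside the set 1, the 3 libraries of the set 1 (with 1 young library assumed to vary like the others) and the replicate block 13. The test in aged 5 against young 1 to 3, added after the data were seen, called 626. Leaving out single libraries gave 0 to 6, the 6 coming without aged 5. Of the other cartilage genes, DESeq2 called 2, the library set term 1 and that added test 2, and leaving out single libraries 0 to 0. The cause of these differences was not tested. The set term without young 1, also chosen after the data were seen, called 0 genes instead of 319 and 0 other cartilage genes instead of 1, with −2.83 for Acan (adjusted p 0.262). The labels do not say that replicate numbers pair mice, so the numbers were not taken as pairs. The deviations of same-numbered libraries correlated at 0.456, 0.554, −0.387 and 0.739, and 3 of the 4 numbers correlated best with their own. The library set holds both libraries of number 4 and only the aged library of number 3. Whether the numbers pair mice was not tested. The fit with the replicate block used numbers 1 to 4 and left out aged 5. Depth limits Matn1, Ucma, Matn3, Ihh and Snorc, which had 11 to 96 counts in all.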

Other observations

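Further genes of the list of other cartilage genes were named after their values were seen. Prg4, which encodes the lubricin of joint surfaces, averaged 41.2 ± 40.4 CPM in aged and 41.2 ± 19.3 CPM in young libraries, and aged 2 (2158 counts) and aged 1 (1677 counts) exceeded every young library (412 to 1495 counts). Chad, the gene of chondroadherin, a leucine-rich cartilage protein, averaged 9.32 ± 9.55 CPM in aged and 27.2 ± 20.9 CPM in young libraries (edgeR adjusted p = 0.692). Its counts were 38 to 582 in aged libraries, against 1377, 743, 75 and 285 in young 1 to 4. Young 1 and young 2 were thus highest for Chad, as for Acan. Pth1r, the receptor for parathyroid hormone and its related peptide, averaged 11.6 ± 2.69 CPM in aged and 17.1 ± 6.47 CPM in young libraries (edgeR adjusted p = 0.722). Fgfr3, a receptor that restrains growth plate chondrocytes, averaged 3.31 ± 2.47 CPM in aged and 5.37 ± 2.82 CPM in young libraries (edgeR adjusted p = 0.952). Mmp13, a collagenase gene of hypertrophic chondrocytes and osteoblasts, averaged 97.9 ± 21.8 CPM in aged and 97.6 ± 40.5 CPM in young libraries.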
